A study of Drosophila melanogaster with 2 samples.

Results

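Mediator is the large protein complex that carries signals from DNA-bound transcription factors to RNA polymerase II. The genes of its subunits were examined here in a chromatin immunoprecipitation and sequencing (ChIP-seq) experiment on whole Drosophila melanogaster embryos aged 0 to 24 h. The 29 genes are the protein-coding genes whose symbol is MED followed by a number, together with kto, skd, Cdk8 and CycC, out of 13968 protein-coding genes in the annotation. The flies were transgenic for a CG3847-eGFP fusion (eGFP, enhanced green fluorescent protein), an antibody to GFP precipitated it, and the sonicated chromatin was sized at 200 to 800 bp. All samples are 1 group with biological replicates 1 and 2, with no second condition, and control libraries were not used here. A peak at a promoter is therefore a measurement of enrichment with this antibody in these embryos, and the part that depends on CG3847 was not tested. The embryos span many cell types and ages, so the cells in which a promoter carried signal are not known. The sources used here give no read depth.

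Mediator is built from a head and a middle module, which contact the polymerase, a tail, on which many activators act, and the subunit MED14, which runs through these parts as a scaffold. A separable kinase module, made in flies of kto (the fly MED12), skd (the fly MED13), Cdk8 and its cyclin CycC, binds the core reversibly and keeps it from the polymerase. Subunits differ in how generally they are needed: several of the head and middle are required for most transcription by polymerase II, whereas kto and skd are known in flies for roles in compartment borders and in eye and wing development. The products were not assayed here, and the values below describe what lies over the start sites of their genes.

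A gene is called bound where any annotated transcription start site (TSS) of it had a peak summit at most 500 bp away. In the optimal peak set, which holds 6174 peaks made from both replicates, 15 of the 29 Mediator genes were bound, or 51.7%, against a background of 31.0% (4330) of all protein-coding genes. The bound genes were MED6, MED17 and MED30 of the head, MED1, MED4, MED7, MED10, MED19 and MED31 of the middle, MED16, MED23 and MED25 of the tail, MED27, which structures place with the head or the tail, and skd and CycC of the kinase module. The other 14 were MED8, MED11, MED18, MED20 and MED22 of the head, MED9, MED21 and MED26 of the middle, MED15 and MED24 of the tail, MED28, MED14, kto and Cdk8. Bound members were thus present in every module except the 1-gene scaffold, with 3 of 8 head, 6 of 9 middle, 3 of 5 tail and 2 of 4 kinase genes. The counts per module are small and no difference between modules was tested.

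**Figure D1:**
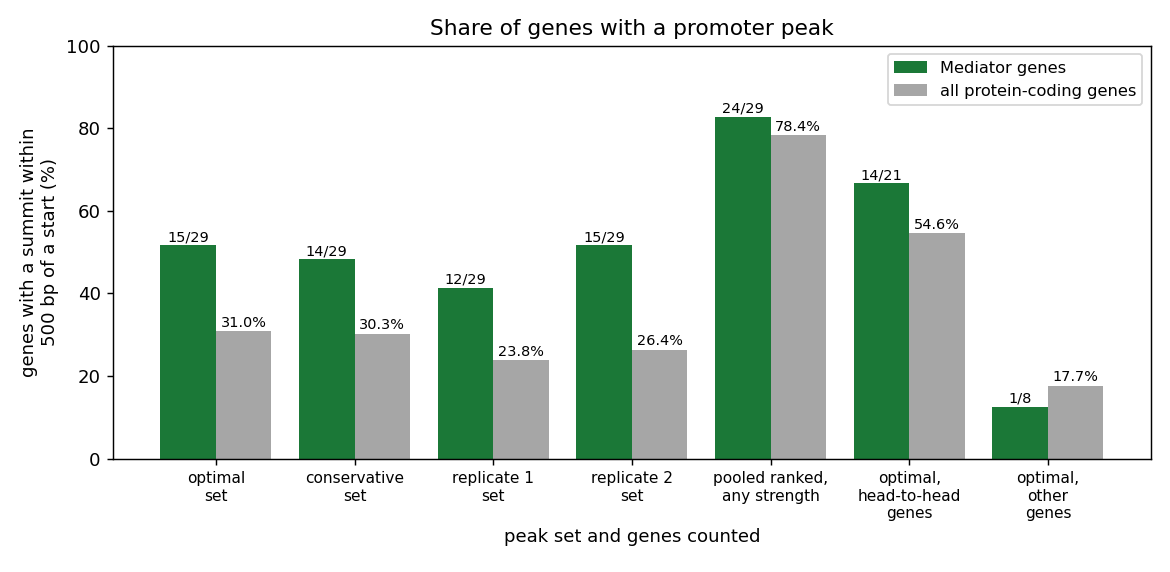
Share of genes with a peak summit within 500 bp of a start site (percent), for Mediator genes (green, with counts) and all protein-coding genes (grey, with percent), in each peak set and, at the right, separately for genes with and without a head-to-head protein-coding neighbour. The Mediator share is 51.7% and the background 31.0% in the optimal set, and 66.7% and 54.6% among head-to-head genes.

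The count was 12 to 15 over the thresholded sets. In the conservative set 14 members were bound (48.3%, background 30.3%), in the thresholded set of replicate 1 alone 12 were (41.4%, background 23.8%), and in that of replicate 2 alone 15 were (51.7%, background 26.4%). In the pooled ranked table, which lists 126316 peaks of any strength, 24 members had a summit within 500 bp of a TSS (82.8%), close to the 78.4% of all protein-coding genes, so a ranked peak by itself says little about a gene. The peak sets are thresholded on the irreproducible discovery rate (IDR), which measures how alike 2 sets of data rank a peak, at a global value of 0.01. These 2 sets are not always replicates 1 and 2, since the files of each replicate alone also carry an IDR. The IDR is given below as −log10, which is 2 at that threshold and at most 5 in the files.

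The strongest Mediator peaks lay at MED27, MED17, MED6, MED30 and MED7. Signal is the authors' own value for a peak, compared here only within a list. MED27 (FBgn0037359, 3R:5655139-5656336, plus strand) had a pooled signal of 618, rank 234 of the 6148 optimal peaks on the major chromosomes, with 367 in replicate 1 and 257 in replicate 2. MED17 (FBgn0038578, 3R:18189072-18191265, plus strand), a central subunit of the head, had 545, with 294 in replicate 1 and 245 in replicate 2, and ranked 295. MED6 (FBgn0024330, 3R:9766031-9768984, minus strand), also of the head, had 506, with 235 in replicate 1 and 256 in replicate 2, and ranked 340. These 3 peaks were the top Mediator peaks in the pooled list, and MED6 was the only one of them with the higher value in replicate 2. MED30 (FBgn0035149, 3L:652987-654089, minus strand), a head subunit of animals that yeast lacks, had 479, with 279 in replicate 1 and 209 in replicate 2. MED7 (FBgn0051390, 3R:10760071-10761032, minus strand), part of the rod of the middle module, had 427, with 245 in replicate 1 and 186 in replicate 2. MED4 (FBgn0035754, 3L:7249529-7250527, minus strand), a further middle subunit, had 309, below the 319 of MED16 described further on, with 171 in replicate 1 and 143 in replicate 2. All 6 had a −log10 IDR of 5, the highest value in the files.

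The 200 bp around the summits of these 6 peaks are shown, the first 5 because they are the strongest Mediator peaks and MED4 because it is the bound member with no head-to-head protein-coding neighbour. MED16, sixth by signal, is not shown. Each is written 5′ to 3′ on the strand of the Mediator gene, from the RefSeq Release 6 genome (dm6), and capitals mark matches to the promoter motifs listed further on. The windows are 3R:5654897-5655096 for MED27, 3R:18188888-18189087 for MED17, 3R:9767722-9767921 for MED6, 3L:654179-654378 for MED30, 3R:10761016-10761215 for MED7 and 3L:7250513-7250712 for MED4. The annotated start lies at base 185 of the MED17 window, 184 of the MED7 window and 186 of the MED4 window, and a start of MED6 at base 107 of its window. In the MED27 and MED30 windows the start of the Mediator gene lies outside.
MED27: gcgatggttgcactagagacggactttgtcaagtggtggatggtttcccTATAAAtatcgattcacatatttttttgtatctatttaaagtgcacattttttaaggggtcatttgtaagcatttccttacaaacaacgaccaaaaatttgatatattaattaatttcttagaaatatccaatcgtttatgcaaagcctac
MED17: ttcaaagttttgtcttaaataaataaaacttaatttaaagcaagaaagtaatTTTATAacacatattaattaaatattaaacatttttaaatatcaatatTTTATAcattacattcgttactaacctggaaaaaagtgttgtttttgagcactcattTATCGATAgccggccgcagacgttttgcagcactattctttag
MED6: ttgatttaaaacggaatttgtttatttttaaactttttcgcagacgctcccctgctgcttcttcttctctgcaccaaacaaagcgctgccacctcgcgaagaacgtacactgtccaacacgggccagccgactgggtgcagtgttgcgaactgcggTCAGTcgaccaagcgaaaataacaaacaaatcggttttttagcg
MED30: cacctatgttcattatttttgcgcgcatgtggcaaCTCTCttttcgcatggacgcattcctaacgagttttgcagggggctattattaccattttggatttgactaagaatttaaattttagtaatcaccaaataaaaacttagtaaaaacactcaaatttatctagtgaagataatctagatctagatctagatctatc
MED7: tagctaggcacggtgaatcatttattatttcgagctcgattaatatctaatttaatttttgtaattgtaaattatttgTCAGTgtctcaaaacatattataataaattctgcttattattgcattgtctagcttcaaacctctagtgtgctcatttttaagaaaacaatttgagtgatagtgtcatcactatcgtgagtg
MED4: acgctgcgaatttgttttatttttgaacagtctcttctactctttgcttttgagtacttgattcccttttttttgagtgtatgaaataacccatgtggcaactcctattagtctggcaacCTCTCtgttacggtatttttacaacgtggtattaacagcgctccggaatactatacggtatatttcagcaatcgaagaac

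The capitals mark TATAAA, the letters of the TATA box, at bases 50 to 55 of MED27 and, on the other strand, at bases 53 to 58 and 101 to 106 of MED17. MED17 also holds TATCGATA, the DNA replication-related element (DRE) of many fly housekeeping promoters, at bases 158 to 165, between the summit and its start at base 185. MED6 and MED7 hold TCAGT, a core of the initiator, at bases 157 to 161 and 79 to 83, and neither match lies at the annotated start. MED30 and MED4 hold the letters GAGAG of GAGA elements on the other strand, at bases 36 to 40 and 121 to 125. Of the 6 windows, 5 hold 25.5 to 38.0% G and C, and that of MED6 holds 47.5%.

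The 6 motifs were searched on both strands in all 15 Mediator windows and in all 3069 promoter peak windows of protein-coding genes. None was in more than 5 of the 15 windows, and with so few windows the shares were not compared by a test. DRE (TATCGATA) was in 1 window, MED17, against 11.5% of all promoter peaks. Ohler motif 1 (GGTCACAC), the element read by M1BP, was in 3 of the 15 windows (MED10, MED19 and MED23), against 11.0% of all promoter peaks. An E-box (CAGCTG) was in 3 (CycC, MED23 and MED25), against 15.3%, GAGAG in 3 (MED4, MED25 and MED30), against 19.1%, TATAAA in 4 (MED1, MED17, MED25 and MED27), against 30.2%, and TCAGT in 5 (MED6, MED7, MED19, MED23 and MED25), against 31.6%. The 3 windows with Ohler motif 1 belonged to peaks with signals of 104, 92.4 and 95.5 at MED10, MED19 and MED23, among the 5 weakest of the bound members. Signals of all promoter peaks with this motif were not compared, so a trait of Mediator peaks cannot be told from a general one. In the 300 bp promoters of all 29 genes, from 250 bp before to 50 bp after the outermost start, GGTCACAC was found in 9, namely those of MED8, MED10, MED11, MED15, MED19, MED20, MED22, MED23 and MED24, against 7.69% of 13968 promoters. Of these 9 genes, 6 were not bound. DRE was in 7 of the 29 promoters (MED7, MED8, MED9, MED17, MED18, MED25 and MED28), against 9.36%, and 4 of those 7 genes were not bound. Most protein-coding genes were not bound, since 31.0% of all of them were. The share bound among all genes with either motif in the promoter was not counted. TCAGT and GAGAG were in smaller shares of the Mediator promoters than of all promoters, 8 of 29 against 51.5% and 6 of 29 against 29.7%. TATAAA was in 15 of the 29, against 45.8%, and CAGCTG in 5, against 17.6%. A match describes letters in a window and was not tested as a site.

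G and C content and signal are set side by side in the plot of promoter peaks. The 10 bound members with a signal above the median of all bound genes (173) had a median G and C content of 33.0% (25.5 to 47.5%), and the 5 weaker ones 40.5% (33.5 to 47.0%). Over all promoter peaks the median was 39.5% in the 768 weakest by signal and 35.5% in the 767 strongest. The order among Mediator peaks was not strict, since MED6 combined the highest G and C content of the 15 with the third highest signal. Base composition can affect the recovery of fragments, and its part in these values was not tested.

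**Figure D2:**
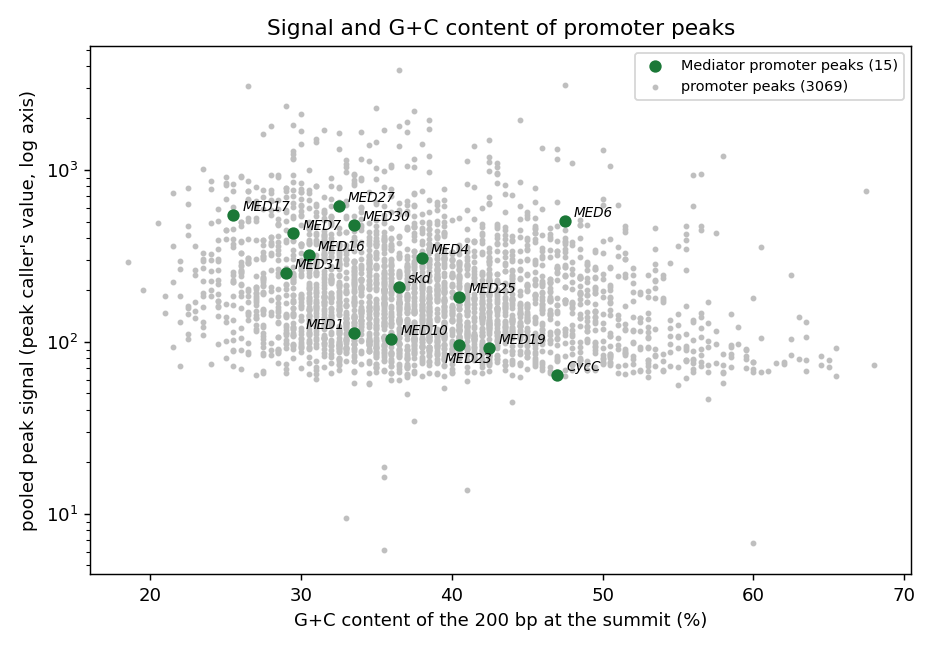
Pooled peak signal (log axis) against the G and C content of the 200 bp at the summit (percent) for the 15 Mediator promoter peaks (green, named) and all 3069 promoter peaks (grey). MED17 has the lowest G and C content of the 15, 25.5%, and MED6 the highest, 47.5%, and both have signals above 500.

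The bound members covered a wide range of signal. Their strongest promoter peaks had a median of 252, from 64.3 at CycC to 618 at MED27, against a median of 173 and quartiles of 113 and 290 over all 4330 bound protein-coding genes. Of the 15, 7 lay above the upper quartile of all bound genes and 10 above their median. MED16, sixth by signal, MED31, skd and MED25 complete the 10 above the median. MED16, a tail subunit (FBgn0034707, 2R:22183138-22185892, plus strand), had 319, with 177 in replicate 1 and 143 in replicate 2. MED31, a small subunit of the middle (FBgn0037262, 3R:4641963-4643292, plus strand), had 252, with 151 in replicate 1 and 95.8 in replicate 2. The kinase module gene skd (FBgn0003415, 3L:20992814-21027434, minus strand), the longest of the 29, had 208, with 125 in replicate 1 and 85.4 in replicate 2. MED25, a tail subunit (FBgn0038760, 3R:20008947-20011712, plus strand), had 183, with 70.2 in replicate 1 and 102 in replicate 2. These 4 were past the threshold in the set of each replicate, as were MED27, MED17, MED6, MED30, MED7, MED4 and MED1.

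The 5 weakest of the bound members were MED1, MED10, MED23, MED19 and CycC. MED1, whose mammalian counterpart binds nuclear receptors (FBgn0037109, 3L:21628325-21634446, minus strand), had a pooled signal of 113, with 65.5 in replicate 1 and 49.0 in replicate 2. MED10, of the middle (FBgn0036581, 3L:16232084-16232777, plus strand), had 104, with 40.3 in replicate 1 and 63.4 in replicate 2. MED23, of the tail (FBgn0034795, 2R:22888928-22894425, plus strand), had 95.5, with 52.6 in replicate 1 and 45.9 in replicate 2. MED1 was in both replicate sets, MED10 only in that of replicate 2, and MED23 in neither, with −log10 IDR values of 1.90 in replicate 1 and 1.92 in replicate 2, just under the threshold. MED19, a middle subunit known in flies as a partner of Hox proteins (FBgn0036761, 3L:17843725-17846501, minus strand), had 92.4, with 41.1 in replicate 1 and 56.0 in replicate 2. CycC (FBgn0004597, 3R:14889004-14890205, minus strand) had 64.3, with 21.6 in replicate 1 and 48.5 in replicate 2, and its pooled −log10 IDR of 2.03 lay just past the threshold. Both were in the set of replicate 2 alone, and CycC was the bound member that the conservative set lacked.

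Between the replicates, 11 of the 15 Mediator peaks were past the threshold in both sets (73.3%), against 65.2% of the 3069 promoter peaks. The log2 ratio of replicate 1 to replicate 2 had a median of 0.27 and an SD of 0.53 over the 15 peaks, against a median of 0.03 and an SD of 0.52 over the 3036 promoter peaks with a value in both. Of the 9 members with a pooled signal above 200, 8 were higher in replicate 1, and of the 6 below it 2 were. All promoter peaks were grouped at other cuts of signal, and their share did not rise steadily with strength. The share higher in replicate 1 was 66.8% in the 764 strongest and 52.4% in the next 763. It was 44.3% in the 759 after them and 48.0% in the 750 weakest. The scale of each replicate list is not stated and may differ between them, and what sets their ratio was not tested.

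**Figure D3:**
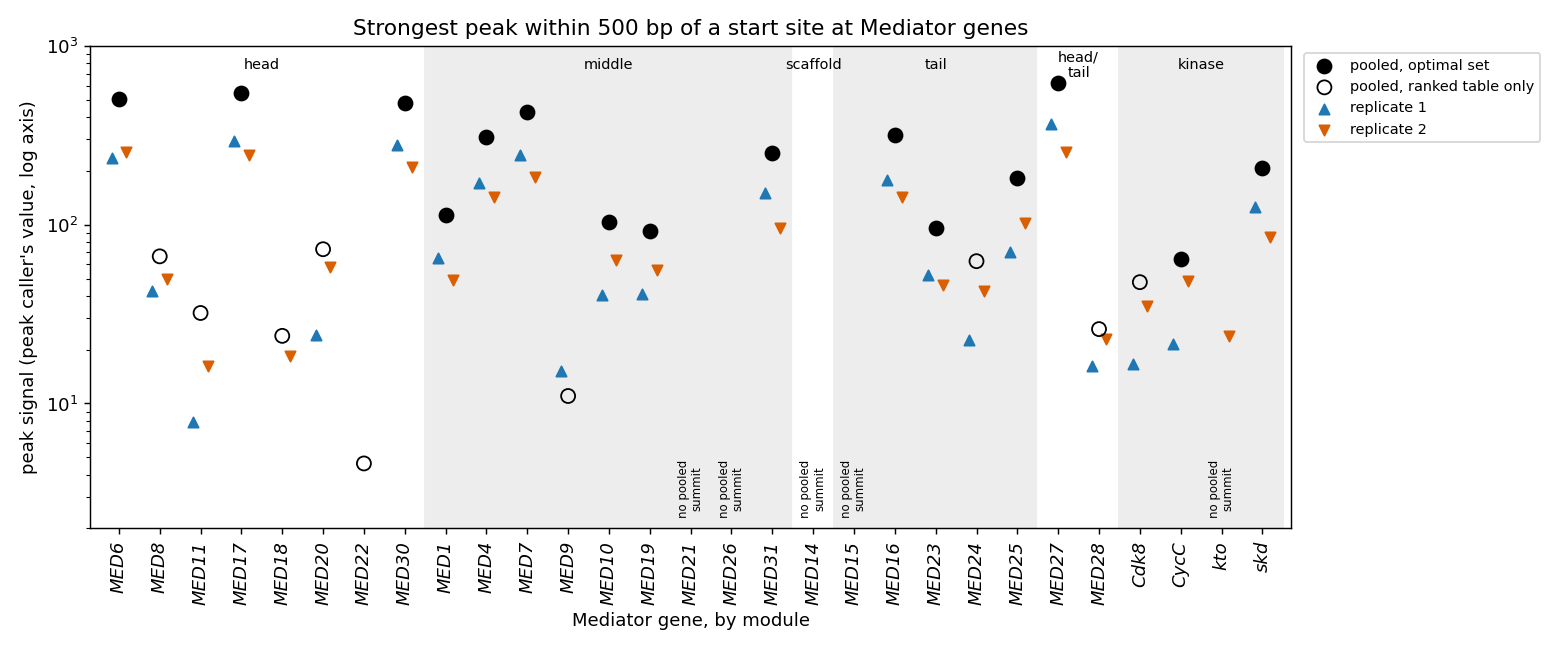
Signal (log axis) of the strongest peak within 500 bp of a start for each of the 29 Mediator genes, grouped by module, in the pooled data (circles, filled where the peak is in the optimal set and open where it is only in the ranked table) and at that promoter in replicate 1 (up triangles) and replicate 2 (down triangles). Filled circles run from 64.3 at CycC to 618 at MED27, and 5 genes have no pooled summit in the window.

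Of the 14 members that were not bound, 9 had a ranked summit within 500 bp of a start, with signals from 4.62 at MED22 to 72.9 at MED20, and 5 had none. The threshold follows the IDR and not signal alone. MED20, a head subunit, had a higher signal (72.9) than the bound CycC (64.3) but a −log10 IDR of 0.16. At MED20 the values were 24.3 in replicate 1 and 57.9 in replicate 2. CycC had a similar gap, with 21.6 and 48.5, and what set the IDR of these peaks apart was not tested. MED8, of the head, came nearest to the threshold, with a signal of 66.5 and a −log10 IDR of 1.60 at a summit 315 bp upstream. A second ranked summit of 65.3 lay 73 bp upstream of MED8, and both replicate sets held a peak there, with signals of 16.4 in replicate 1 and 49.6 in replicate 2. MED8 was thus counted in each replicate alone and not in the pooled set.

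The weaker ranked peaks lay at MED24 (62.5), Cdk8 (47.7), MED11 (32.1), MED28 (26.1), MED18 (23.9), MED9 (11.0) and MED22 (4.62). Cdk8, the kinase of the kinase module (FBgn0015618, 3L:9837080-9838670), had 16.6 in replicate 1 and 35.1 in replicate 2 at a summit 50 bp upstream, with a pooled −log10 IDR of 0.44. MED24, a tail subunit, had 22.8 in replicate 1 and 42.3 in replicate 2, 32 bp downstream of its start, and the nearest optimal summit was 4379 bp upstream, at Atg18a (signal 455). In all 6 of the members that were not bound and had a ranked summit in both replicates, the strongest value in the window was higher in replicate 2. The same share over all genes that were not bound was not counted. At MED8 the value of replicate 1, 42.6, came from another summit than its peak of 16.4 given above.

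MED14, MED15, MED21, MED26 and kto had no pooled ranked summit within 500 bp. The nearest summit to MED14, the scaffold gene (FBgn0035145, 3L:593246-599239), lay 751 bp upstream with a signal of 5.58, and that to kto (FBgn0001324, 3L:19836614-19844944) lay 510 bp downstream of a start, in a coding exon, with 15.1. In replicate 2 alone kto had a ranked summit of 24.0 within the window. For MED21 (FBgn0040020, 3L:25114924-25115946) the nearest summit was 4724 bp upstream, at the start of UQCR-11, with a signal of 105. MED26 lies on the small chromosome 4, and its nearest ranked summit was 18052 bp upstream, in an intron of Sox102F, with a signal of 22.1.

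MED15 is a separate case, since strong peaks beside it are missing from every thresholded set. MED15 encodes a tail subunit (FBgn0027592, 2L:473013-476170, plus strand). The pooled ranked table held a peak at 2L:472373-472578 with a signal of 363 and a −log10 IDR of 5, with 198 in replicate 1 and 169 in replicate 2. Its summit lay in intergenic sequence 542 bp upstream of MED15, just outside the window, and 271 bp from a start of CG4297. That signal would stand between those of MED7 and MED16. Within 5000 bp of MED15, 4 ranked peaks past the threshold were absent from the optimal set, among 171 such peaks on the major chromosomes. The others were at 2L:471144-471533 in an intron of CG4297 (signal 146) and at 2L:479932-480217 and 2L:480885-481281 in an intron of ush (606 and 2992), and none of the 4 overlapped a peak of the optimal, conservative or replicate sets. With ranked peaks past the threshold and a window of 1000 bp, a setting chosen after this peak was seen, MED15 was counted and the total was 16 of 29, against 35.2% of all protein-coding genes. Why these peaks are absent was not tested. The 200 bp at the MED15 summit, 2L:472371-472570 on the plus strand, are given because the thresholded sets do not show this peak, and they hold none of the 6 motifs.
MED15: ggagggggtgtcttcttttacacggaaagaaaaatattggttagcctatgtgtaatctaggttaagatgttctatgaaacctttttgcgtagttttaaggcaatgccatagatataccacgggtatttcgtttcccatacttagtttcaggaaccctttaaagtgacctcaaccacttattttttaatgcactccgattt

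Mediator promoters were mostly shared with a neighbouring gene on the other strand. Of the 29 genes, 21 (72.4%) had the TSS of another protein-coding gene head to head within 1000 bp, against 36.2% of all protein-coding genes. Among these 21 genes 14 were bound (66.7%), against 54.6% of 5052 such genes, and among the other 8 only MED4 was (12.5%), against 17.7% of 8916. Within each kind of promoter the Mediator share was nearer to the background than in the count over all 29 genes, above it for head-to-head genes and below it for the others.

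At 14 of the 15 bound members (93.3%) the summit lay within 500 bp of a start of another gene as well, against 60.4% of all bound protein-coding genes, and the exception was MED1. The neighbours were elm at MED27, CG12321 at MED17, Naa80, an actin acetyltransferase gene, at MED6, Rev1, which encodes a translesion DNA polymerase, at MED30, Cap-H2, a condensin subunit gene, at MED7, and CG11170 at MED16. They were Hs6st, a heparan sulfate sulfotransferase gene, at MED25, Pdss2, of coenzyme Q synthesis, at skd, PDCD-5 at MED10, Gmer, of GDP-fucose synthesis, at MED23, CG7430 at MED19, and UQCR-C1, of the respiratory chain, at CycC. MED31 shares its start with slx1 on the same strand and had CG9775 on the other, and MED4 had the antisense RNA gene asRNA:CR43470. At 7 of the 15, namely CycC, MED25, MED27, MED30, MED31, MED4 and skd, the summit lay nearer to the start of the neighbour than to that of the Mediator gene. The same share over all bound genes was not counted. At MED27 the distances were close, 136 bp to elm and 142 bp to MED27. The summit at skd was 423 bp upstream of skd and 58 bp from Pdss2, and that at MED25 was 349 bp upstream of MED25 and 86 bp from Hs6st. With fragments of 200 to 800 bp, a peak at one start of such a pair cannot be told apart from a peak at the other.

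**Figure D4:**
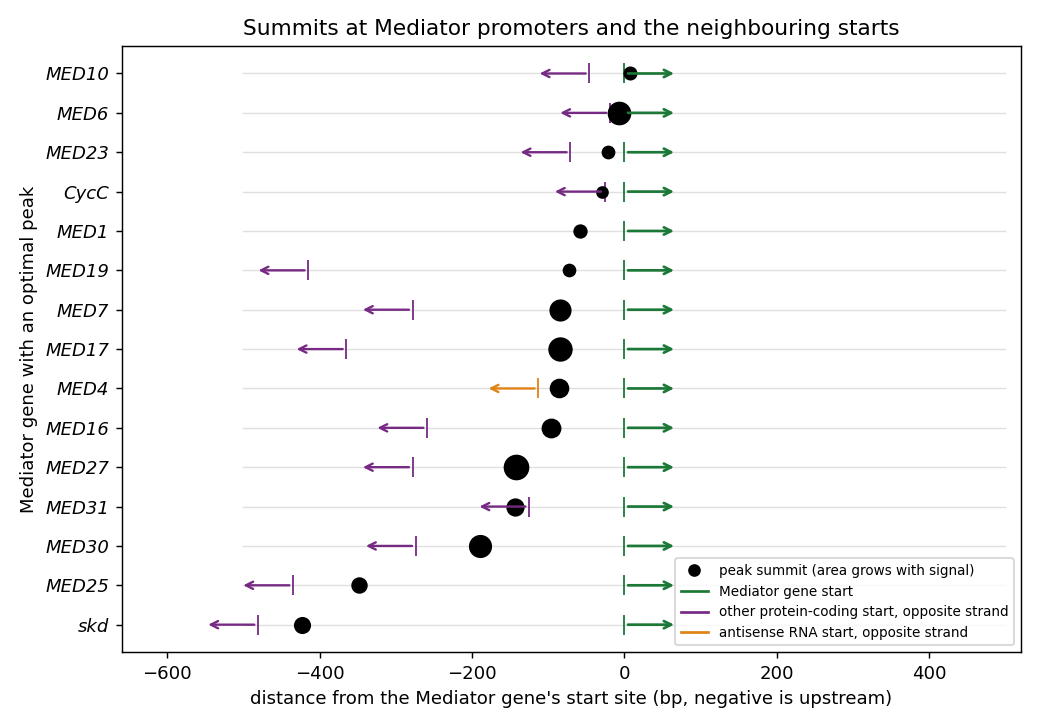
Position of the peak summit (black, area growing with signal) at each of the 15 bound Mediator genes, in bp from the start of the Mediator gene nearest to the summit (green arrow), with starts on the opposite strand within 500 bp of the summit (purple, protein-coding; orange, antisense RNA). Summits run from 423 bp upstream at skd to 7 bp downstream at MED10, and slx1, which starts at the same base as MED31, is not drawn.

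Summits lay upstream of the start at 14 of the 15 members (93.3%), against 87.9% of all bound protein-coding genes, with a median of 84 bp upstream against 93 bp. MED10, with its summit 7 bp downstream in its own 5′ UTR, was the exception. At 10 of the 15 (66.7%) the summit was within 100 bp of a start, against 49.3% of all bound genes. MED6 has 5 annotated starts, and its summit lay 7 bp upstream of the innermost one. With only the outermost start of each gene MED6 was not counted, and 14 members were bound, against 29.0% of all protein-coding genes. MED19 had a second optimal peak in its neighbourhood, with a signal of 104 and a summit 571 bp upstream, in the 5′ UTR of CG7430.

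None of the members had an optimal peak in its own body beyond 500 bp of a start. Optimal summits past the 3′ end or upstream within 2000 bp belonged by distance to other genes, among them Cdc27 beside MED4 (signal 181), poe beside MED20 (87.1), Papss beside kto (94.2), Nufip and CG6885 beside MED11 (122 and 62.1), and Dhps beside MED24 (92.9).

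Other genes of the transcription machinery that work with Mediator were counted in the same way. The gene ix, the fly MED29, which the symbol rule leaves out, was not bound. Of 8 genes of initiation factors 4 were bound, TfIIA-L (signal 369), TfIIEalpha (220), TfIIB (214) and TfIIEbeta (70.7), while Tbp, TfIIA-S, TfIIFalpha and TfIIFbeta were not. TFIIH opens the promoter, and its kinase Cdk7 is stimulated by Mediator. Of the genes listed for TFIIH, Tfb2 was not matched in the annotation and was not counted. The 10 that were matched were all bound, from CycH (81.4) to Ssl1 (1721). The peak at Ssl1 also lay within 500 bp of a start of Chro, and the next strongest were mrn (295), Mat1 (193) and Xpd (190). Of 6 genes of further transcription kinases and partners 4 were bound, among them Cdk12 (308), CycT (152) and Cdk9 (82.5), while CycK and Nipped-B were not. The Cdk12 peak had 180 in replicate 1 and no overlapping ranked peak in replicate 2. Its summit lay 332 bp upstream of Cdk12 and also within 500 bp of a start of SAK. At TfIIA-L, TfIIB, mrn, Xpd and Cdk9 the summit likewise lay within 500 bp of a start of another gene. At TfIIEalpha, TfIIEbeta, Mat1, CycH and CycT it did not. Together 18 of the 25 genes counted in these lists were bound (72.0%), against 51.7% of the Mediator genes and 31.0% of all protein-coding genes. The lists were not split into genes with and without a head-to-head neighbour.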

How the data were processed

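ChIP-seq peaks were analysed from 2 biological replicates of 1 group, numbered as in the labels. Per the deposited file descriptions, the 4 thresholded sets and 4 ranked tables are IDR peaks on dm6, the optimal and conservative sets come from both replicates, and each replicate's sets from its own alignments. An additional file entered the thresholded sets alone. No aligner or peak caller is named in the sources used here. Peak signal was deposited without a stated scale. The deposited score is the scaled IDR (830 to 1000 in the optimal set), and −log10 of the global IDR was deposited in the ranked tables. The 8 columns of component peaks in a ranked table were not used. Replicate values come from the replicate's ranked table, at the strongest peak overlapping the optimal peak by at least 1 bp, or otherwise the strongest summit within 500 bp.

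Genes and starts were taken from Ensembl release 115 (BDGP 6.54) without transposable elements, on the major chromosomes and arms: 18277 genes and 23694 distinct TSSs. Coordinates count from 1, and the distance rules were tested on simulated data with known answers. Python 3.11.15 and pandas 2.3.3 were used. No test was made, since there is 1 group, and shares are descriptions beside the same share over all genes, which are not independent replicates. Every Mediator gene is named, as are genes starting within 500 bp of a bound summit and up to 4 bound genes of each further list by signal. A few genes that this rule names are counted but not reported here. Other settings were the conservative set, each replicate alone, a global IDR of 0.001, the stronger 50% of the peaks, windows of 200 and 1000 bp, 1 TSS per gene and all ranked peaks past the threshold. The members and lists were chosen with earlier results of these data known.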

Additional observations from a re-analysis of the deposited data

How the results depend on the processing

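The number of bound Mediator genes was 15 in the main count and 10 to 16 under the other settings. At a global IDR of 0.001 it was 11, without CycC, MED10, MED19 and MED23, against 23.5% of all protein-coding genes. In the stronger 50% of the peaks it was 10, without these 4 and MED1, and the background fell to 20.5%. A window of 200 bp gave 13, without MED25 and skd, against 24.5%, and one of 1000 bp gave the same 15 genes, against 34.4%. With either replicate left out the count was 12 to 15 and the background 23.8 to 26.4%: without replicate 1 MED23 was lost and MED8 gained, and without replicate 2 CycC, MED10, MED19 and MED23 were lost and MED8 gained. The median signal over the bound members, 252, was 102 to 174 with a replicate left out, on lists whose scale is not stated and may differ from the pooled one. The number with peaks in both replicate sets was 11 under both other overlap rules. No paired analysis was possible because there is 1 group. Peak files carry no read counts, so the depth behind a missing peak is not known, and a gene without a peak cannot be told from one below detection.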
